A study of Mus musculus with 52 samples.

Results

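The hypothalamus of mice given insulin at a high rate was compared with that of mice given insulin at a low rate, across all measured genes. The comparison used the 5 hypothalamic libraries of the high rate and the 6 of the low rate, 11 of the 52 libraries of the study, chosen by their titles. The animals were males of the inbred laboratory strain C57BL/6J, aged 3 months, that carried a catheter in the jugular vein and were conscious during the infusion. Insulin ran at 12 mU/kg/min in the high group and at 4 mU/kg/min in the low group for 3 h, while infused glucose held blood glucose in place, a procedure called a clamp. Both groups therefore received insulin, glucose and surgery, and the saline-infused mice took no part in the main test. RNA was taken from the whole dissected hypothalamus, so every value is an average over neurons, glia and vessels, and fewer cells of a type cannot be told apart from less RNA per cell. No label states that each library came from its own animal, and the p-values reflect the spread among the libraries alone. The labels give the insulin rate but no plasma insulin or glucose level, so the insulin that reached the brain is not known here. The amount of glucose infused at each rate is not given either, and its part cannot be told apart from that of insulin.

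Insulin crosses the vessels of the brain and acts on receptors of neurons, glia and endothelium. In the arcuate nucleus of the hypothalamus, neurons that make Agrp and Npy drive feeding and neurons that make Pomc restrain it, and both carry insulin receptors. Bound receptors act through the adaptors Irs1 and Irs2, the PI3K and AKT kinases and mTOR, hold FOXO transcription factors out of the nucleus, and switch on genes of sterol and fatty acid synthesis through SREBP. A comparison of 2 rates asks whether these readouts differ once insulin is already present.

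Total counts per library ranged from 4194841 to 6137005 in the high group with a median of 5319913, and from 3152381 to 7201582 in the low group with a median of 4786650. The totals did not differ beyond the spread between libraries (2-sided exact permutation test, p = 0.916). The mitochondrial share of counts was 2.33% to 3.51% in the high group and 2.3% to 3.22% in the low group (exact permutation p = 0.561). None of the 25 pairs of libraries within a group agreed within sampling noise, so no library was counted as a repeat of another.

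The label hypothalamus was checked against genes that define the region, and 6 of the 11 libraries held all 5 peptides at 1 CPM or more. In the other 5, high 3, high 5, low 1, low 2 and low 6, at least 1 of the 5 peptide genes Avp, Oxt, Hcrt, Pmch and Pomc lay below 1 CPM, a count scaled by the TMM-adjusted size of its library. Avp and Oxt encode vasopressin and oxytocin, made by large neurons of the paraventricular and supraoptic nuclei. Avp had 62.9, 91.6, 46.8, 52.5 and 0.908 CPM in high libraries 1 to 5, against 0.939, 0, 99.8, 44.6, 64.8 and 0.213 CPM in low libraries 1 to 6. High 5 and low 1, 2 and 6 were thus near 0 for Avp, and Oxt had 0.227, 0.313, 0.21 and 0.213 CPM in the same 4. Hcrt, the wake-promoting orexin peptide of the lateral hypothalamus, had 0.168 CPM in high 3 and 1.89 CPM in low 2, against 38.4 to 159 CPM in the other high and 26.8 to 102 CPM in the other low libraries. High 3 kept 46.8 CPM of Avp and 74.2 CPM of Oxt, so it lacked a different set of peptides from high 5.

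Genes of neighbouring regions moved with these gaps; the lists for them were put together after the values were seen and carry no test. The summed level of 12 genes of midbrain dopamine neurons, which lie just behind the hypothalamus, was 283, 284, 126, 233 and 823 CPM in high libraries 1 to 5, against 802, 1990, 290, 228, 174 and 1160 CPM in low libraries 1 to 6. It was highest in the 4 libraries near 0 for Avp. Slc6a3, the dopamine transporter, had 13.4, 16.8, 0.673, 5.89 and 210 CPM in the high libraries, against 218, 595, 21.9, 5.93, 3.94 and 347 CPM in the low libraries. The summed level of 8 basal forebrain genes was 279 CPM in high 3, against 17.2 to 34.4 CPM in the other high libraries and 13.3 to 39.4 CPM in the low libraries. Among them was Slc5a7, the choline transporter of cholinergic neurons, with 82.3 CPM in high 3. Pituitary genes, a list of 10, summed to 77.3 CPM in low 4, against 8.16 to 15.7 CPM in the high libraries and 8.68 to 14.5 CPM in the other low libraries. The summed level of 13 genes of the meninges, the membranes around the brain, was 276 and 245 CPM in low 2 and low 3, against 62.2 to 81.7 CPM in the high libraries and 67.3 to 81.6 CPM in the other low libraries. The main results that rest on these libraries are given below with and without them.

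**Figure D1:**
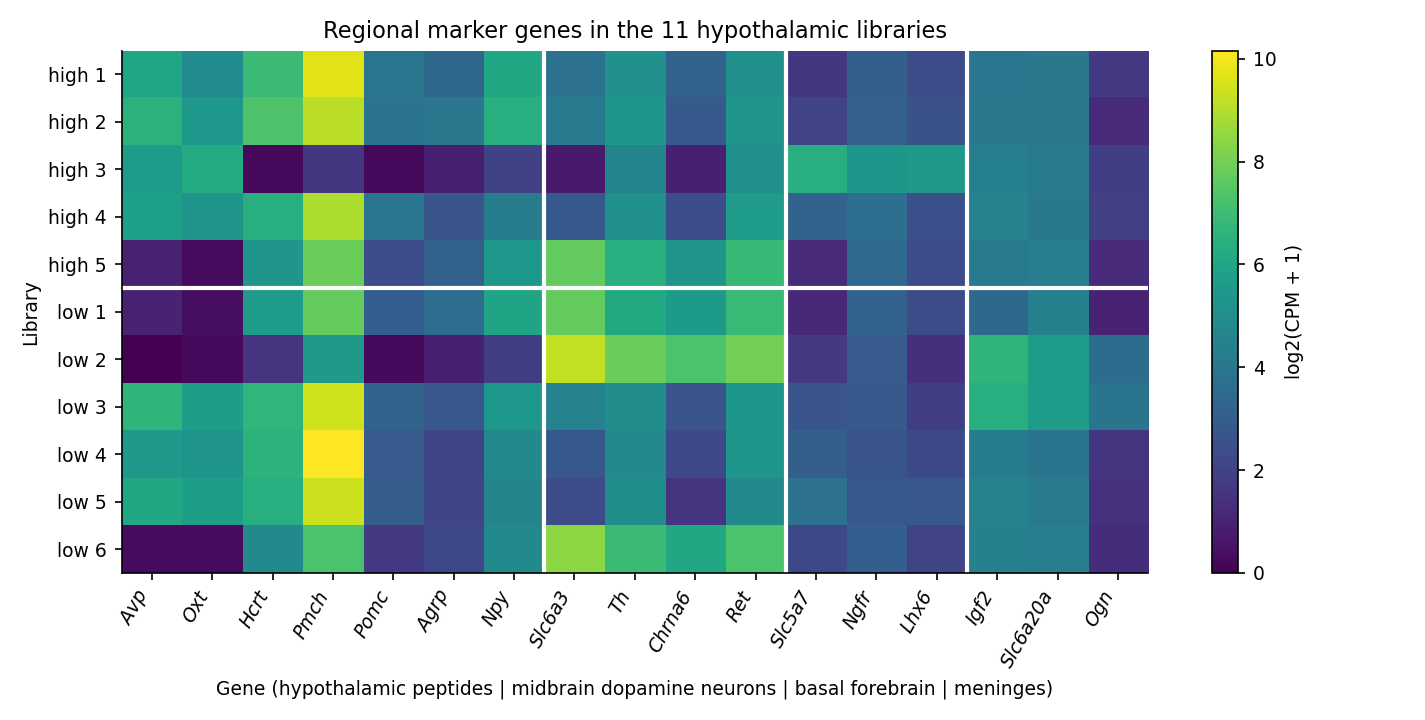
Level of 17 marker genes as log2(CPM + 1) (colour) in the 5 high libraries (upper rows) and the 6 low libraries (lower rows). The 4 libraries near 0 for Avp, high 5 and low 1, 2 and 6, hold 210 to 595 CPM of Slc6a3, while high 3 alone is high for the basal forebrain genes.

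No gene was called between the rates. Of 13852 genes tested, 0 (0%) had an adjusted p under 0.05 in edgeR's quasi-likelihood test with Benjamini-Hochberg adjustment, and the smallest adjusted p was 0.9997. At an unadjusted p under 0.05 there were 257 genes, 1.86% of those tested, of which 106 were higher and 151 lower in the high group. A share of 5% would be 693 genes. DESeq2 and limma-voom also called 0, with 239 and 252 genes at an unadjusted p under 0.05. Since every adjusted p in this comparison is at least 0.9997, the genes named below are given with their values and 95% intervals, and none passed the threshold.

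A p above the threshold does not show that the rates acted alike, so the width of each interval matters. The median standard error of a log2 fold change was 0.148 and the median interval ran 0.315 to either side. For 13033 genes (94.1%) the whole 95% interval lay within a 2-fold difference in either direction, and for 10140 genes (73.2%) it lay within a 1.5-fold difference. Among genes with a mean of at least 50 CPM these shares were 99.1% and 95.2%, and among genes under 5 CPM they were 75.2% and 11.3%. For most genes under 5 CPM the interval therefore did not exclude a 1.5-fold difference. The fitted log2 fold change was beyond 1 in size for 40 genes, 11 higher and 29 lower in the high group. The rates accounted for 7.93% of the variance of log-CPM values with 1 of 10 degrees of freedom, a share below 1 in 10. The first principal component, a direction chosen to hold the most variance and so not a like measure, held 34.4%. It did not separate the rates (exact permutation p = 0.465).

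Genes that were followed because they differ from saline under insulin lay at overlapping levels under both rates. Intervals were wide for Lnpep, Zfp871, Lcor and Chrnb3, and single libraries stood out in Lnpep and Zfp871. Chrnb3 was higher in high 5 and low 1, 2 and 6, at 15.3 to 54.7 CPM, than in the rest. Each rate's own difference from saline, from a fit that adds the 5 saline libraries, is set beside the difference between rates. These values share libraries with it and are a description. The library tag numbers in the titles of the saline libraries lie in the lowest and highest ranges but not in the middle one, where each rate has 2 libraries. How far tag range or dissection enters the differences from saline was not tested. In that fit 26 of 14139 genes (0.184%) were called between the high rate and saline, and 760 (5.38%) between the low rate and saline, and the 2 comparisons share the saline libraries. A call at 1 rate and not at the other does not show a difference between rates, and the direct test above found 0 genes.

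Insig1, which retains the SREBP precursor in the endoplasmic reticulum and is in turn one of the targets of SREBP, had 119, 96.5, 119, 113 and 122 CPM in the high libraries, against 95.3 to 140 CPM with a median of 112 CPM in the low libraries. The groups overlapped almost wholly. The log2 fold change of Insig1, high minus low, was 0.01 ± 0.11 (SE) with a 95% interval of -0.23 to 0.25. Insig1 was above saline by a log2 fold change of 0.71 at the high rate (adjusted p = 0.0158 in edgeR) and of 0.70 at the low rate (adjusted p = 0.00648).

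Angptl4, a secreted inhibitor of lipoprotein lipase that is raised by fasting, had 5.1, 7.23, 9.25, 6.26 and 5.9 CPM in the high libraries, against 5.33 to 8.52 CPM with a median of 6.6 CPM in the low libraries. Both groups covered the same range. Its log2 fold change between rates was 0.00 (-0.0049) with a 95% interval of -0.43 to 0.42, while the values against saline were -1.11 at the high rate and -1.11 at the low rate (adjusted p = 0.0369 and 0.0101 in edgeR).

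Sesn3, a sestrin that acts on mTOR complexes and is a FOXO target, had 62.9, 51.3, 64.4, 53.4 and 48.1 CPM in the high libraries, against 43.2 to 66.8 CPM with a median of 59.9 CPM in the low libraries. The log2 fold change of Sesn3 between rates was -0.06 (95% interval -0.31 to 0.19), beside 1.68 for the high rate and 1.74 for the low rate against saline. Ryr3, a calcium release channel of the endoplasmic reticulum, had 82, 76.9, 99.9, 95.2 and 108 CPM in the high libraries, against 76.5 to 127 CPM with a median of 100 CPM in the low libraries. For Ryr3 the log2 fold change between rates was -0.14 (95% interval -0.41 to 0.14), beside 1.16 and 1.30 for the high and the low rate against saline. In both genes the interval between rates excluded the size of the difference from saline at either rate.

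Srrm4os, a transcript that overlaps exons of Srrm4 on the opposite strand, had 6.8 to 11.9 CPM in the high and 5.94 to 12.8 CPM in the low libraries, with a log2 fold change of 0.07 (95% interval -0.37 to 0.51). Whether the counting used strand is not stated, so reads of Srrm4 cannot be told apart from its own. Cbl, a ubiquitin ligase that marks activated receptors for degradation, had 21.1 to 42.2 CPM in the high and 19.7 to 44.6 CPM in the low libraries, and its log2 fold change was -0.16 (95% interval -0.57 to 0.26). Stard4, a carrier of cholesterol within cells, had 40.9 to 54 CPM in the high and 41.9 to 57.4 CPM in the low libraries, with a log2 fold change of -0.10 (95% interval -0.33 to 0.13).

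Dcc, the netrin receptor of growing axons, had 10.2, 9.33, 12.6, 13.1 and 9.99 CPM in the high libraries, against 11.3 to 21.3 CPM with a median of 13.4 CPM in the low libraries. The highest values were in low 6 and low 2, and 3 of the 5 high libraries lay below every low library. The log2 fold change of Dcc was -0.43 ± 0.18 (SE), with a 95% interval of -0.81 to -0.05, and without the 5 libraries that lack a peptide it was -0.25.

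Lnpep, Zfp871, Lcor and Chrnb3 had wide intervals. Lnpep, an aminopeptidase that travels with the insulin-regulated glucose transporter, had 14.7, 9.09, 7.06, 23.9 and 16.1 CPM in the high libraries, against 17.8, 93.2, 25.4, 16.4, 12 and 18.5 CPM in low libraries 1 to 6. Lnpep had a log2 fold change of -1.10 ± 0.59 (SE). Without low 2 it was -0.33, and without the 5 libraries that lack a peptide -0.10. Zfp871, a zinc finger gene, averaged 14.3 ± 4.67 CPM in the high group and 24.7 ± 17.2 CPM in the low group (SD, n = 5 and 6). The highest value of Zfp871 was again in low 2, at 58.5 CPM, and without low 2 the log2 fold change of -0.78 was -0.31, and -0.15 without the peptide-lacking libraries. Lcor, a corepressor of nuclear receptors, had 7.18, 7.69, 2.19, 11.8 and 8.63 CPM in the high libraries, against 8.1 to 14.7 CPM with a median of 12.2 CPM in the low libraries. High 3 held the lowest value of Lcor. Its log2 fold change of -0.69 ± 0.29 (SE) was -0.44 without high 3 and -0.52 without the peptide-lacking libraries. Chrnb3, a nicotinic receptor subunit that is also on the midbrain dopamine list, had 2.27, 1.63, 0.168, 1.84 and 15.4 CPM in the high libraries, against 15.3, 54.7, 2.7, 0.988, 0.473 and 26.8 CPM in low libraries 1 to 6. For Chrnb3 the log2 fold change, -2.03 (95% interval -4.86 to 0.80), was -0.77 without low 2 and high 3. That setting keeps high 5, low 1 and low 6, where Chrnb3 was also high. Without the 5 peptide-lacking libraries Chrnb3 gave no value. In the highest range of library tags the log2 fold changes of Lnpep, Zfp871, Lcor and Chrnb3 were 0.0037, -0.08, -0.55 and -0.69.

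**Figure D2:**
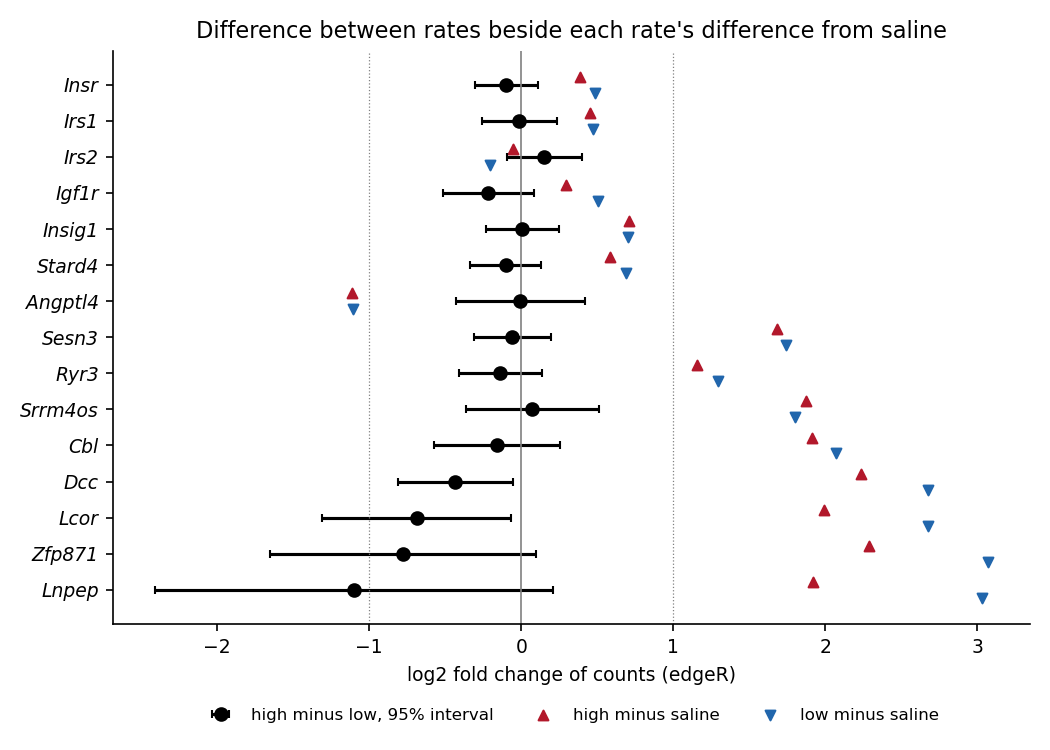
Log2 fold change of 15 followed genes between the high and the low rate (circles, with 95% intervals, from the fit of 11 libraries) beside each rate's difference from saline (triangles, from the fit of 16 libraries), with dotted lines at a 2-fold difference. The circles of Insig1, Angptl4, Sesn3 and Ryr3 sit near 0, at 0.01, -0.0049, -0.06 and -0.14, while the intervals of Lcor, Zfp871 and Lnpep are wide.

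The receptor genes themselves did not separate the rates. Insr, the insulin receptor, had 141, 136, 142, 135 and 115 CPM in the high libraries, against 116 to 157 CPM with a median of 149 CPM in the low libraries, a log2 fold change of -0.10 (95% interval -0.30 to 0.11). High 5 and low 1, which both lack Avp and Oxt, held the lowest value of Insr in their groups. Irs1 averaged 16.5 ± 1.28 CPM in the high and 16.7 ± 1.38 CPM in the low libraries (SD, n = 5 and 6), with a log2 fold change of -0.01 (95% interval -0.26 to 0.23). Irs2, an adaptor gene that FOXO factors raise and insulin lowers in liver, averaged 53.7 ± 7.31 CPM in the high and 48.2 ± 6.22 CPM in the low libraries, with a log2 fold change of 0.15 (95% interval -0.10 to 0.40). Igf1r, the receptor for insulin-like growth factor 1, averaged 48.6 ± 7.75 CPM in the high and 56.3 ± 10 CPM in the low libraries, with a log2 fold change of -0.22 (95% interval -0.52 to 0.08).

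**Figure D3:**
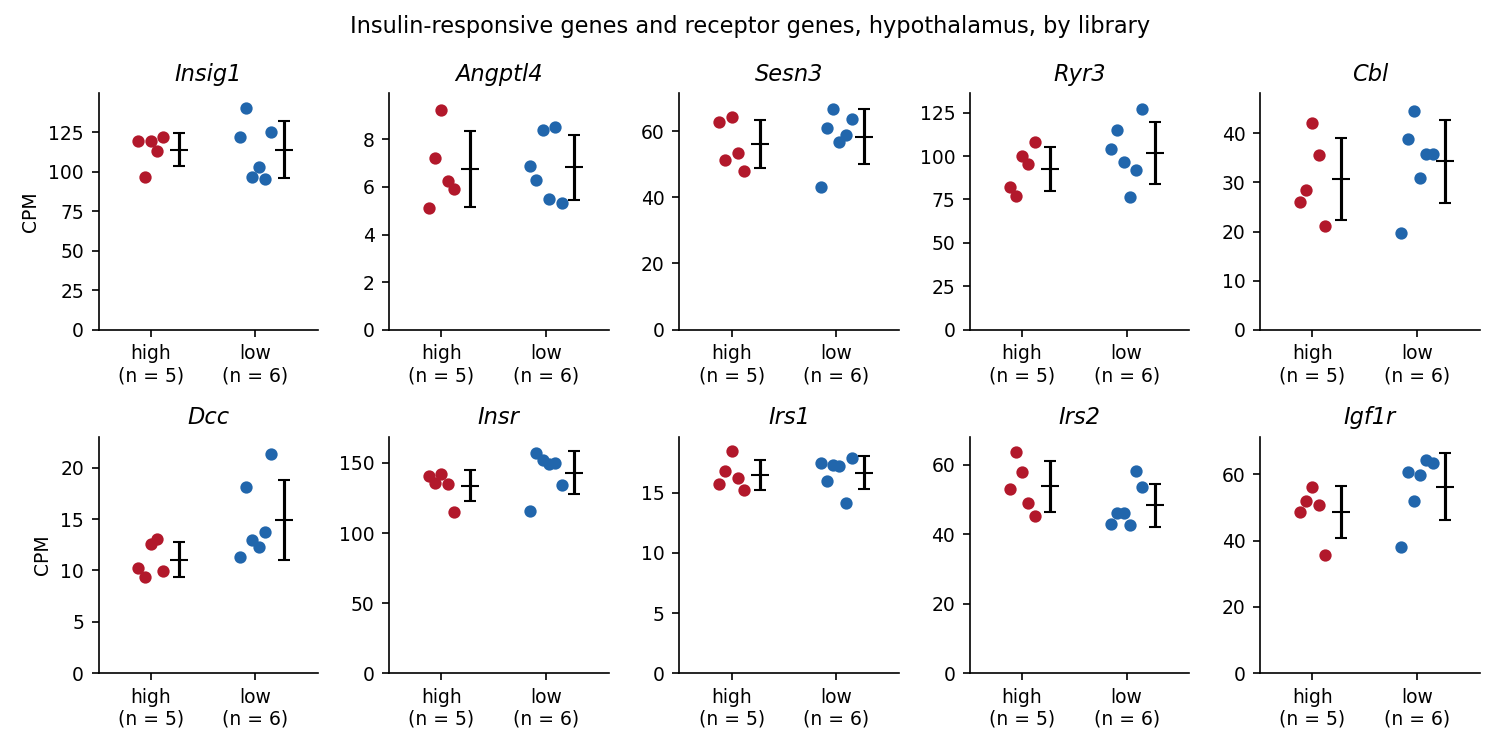
CPM of 10 genes, followed for a difference from saline or as receptor and adaptor genes, in each library. The 5 high libraries are on the left in each panel and the 6 low libraries on the right, with the mean and SD beside them. The 2 groups overlap in all 10 panels, and in Dcc the low libraries reach 21.3 CPM and the high ones 13.1 CPM.

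Signalling genes downstream of the receptor were called in no case, where 0% of all genes were called, and their medians stood beside a median of -0.00143 over all genes tested. Of 13 receptor and adaptor genes 0 were called, with a median log2 fold change of -0.07, and 12 of the 13 intervals lay within 2-fold, the other being that of Igfbp2. Of 29 genes of the PI3K, AKT and RAS arms 0 were called and all 29 intervals lay within 2-fold, with a median of -0.03. Examples are Akt1, with 153 CPM in the high and 159 CPM in the low group, and Pik3r1, the regulatory subunit of PI3K, with 142 and 145 CPM. The mTOR list had 16 of 18 members tested and 0 called, and Mtor itself averaged 163 CPM in the high and 169 CPM in the low group.

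FOXO factors and fasting-responsive genes had 18 of 19 members tested, 0 called, and a median log2 fold change of -0.03. Their 2 members at an unadjusted p under 0.05 pointed in opposite directions. Pdk4, a kinase that shuts pyruvate dehydrogenase off during fasting, had 24.9, 26.1, 26.2, 18.2 and 26.6 CPM in the high libraries, against 27.2 to 37.1 CPM with a median of 30.3 CPM in the low libraries. The groups did not overlap, and the log2 fold change of Pdk4 was -0.34 ± 0.13 (SE). Txnip, an inhibitor of glucose uptake that rises with glucose, had 59.7, 60.4, 56.3, 32.6 and 37.5 CPM in the high libraries, against 29.1 to 45.9 CPM with a median of 39 CPM in the low libraries. High 1, 2 and 3 lay above every low library and high 4 and 5 within their range, with a log2 fold change of 0.35 ± 0.17 (SE).

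Lipid genes under SREBP control were called in no case. The 2-fold bound used for them is wider than the difference of Insig1 from saline given above. Of 12 sterol sensing genes 0 were called, with a median log2 fold change of 0.01 and all 12 intervals within 2-fold. Srebf1 averaged 124 CPM in the high and 116 CPM in the low group, and Srebf2 182 and 176 CPM. Of 24 cholesterol synthesis and uptake genes 23 were tested and 0 called, with a median of -0.02 and all 23 intervals within 2-fold. Dhcr7, a late enzyme of the pathway, was the member with the smallest p, at 31 to 42 CPM in the high and 22.8 to 33.3 CPM in the low libraries. Of 16 fatty acid genes 0 were called, and Fasn averaged 361 CPM in the high and 352 CPM in the low group.

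Glucose handling showed the same picture. Of 11 glucose transport genes 0 were called and 10 intervals lay within 2-fold, Lnpep being the other. Slc2a1, the glucose transporter of the blood-brain barrier, averaged 237 ± 25.6 CPM in the high and 274 ± 30.7 CPM in the low group (SD, n = 5 and 6), with a log2 fold change of -0.21 (95% interval -0.43 to 0.01). Of 19 glycolysis genes 0 were called, with all 19 intervals within 2-fold and fold changes between -0.15 and 0.13 on the log2 scale.

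Genes that read out neuronal activity and stress were called in no case either. Of 20 immediate early genes 16 were tested and 0 called, with 10 above and 6 below 0. Junb, a transcription factor induced by activity, had 9.44, 11.4, 10.8, 8.65 and 13.2 CPM in the high libraries, against 6.07 to 12.1 CPM with a median of 6.96 CPM in the low libraries (log2 fold change 0.42, 95% interval 0.01 to 0.84). Fos, the classic marker of recent activity, averaged 14.1 CPM in the high and 16.8 CPM in the low group, so the 2 genes pointed in opposite directions. Of 18 glucocorticoid-responsive genes 0 were called, and Fkbp5, a sensitive target of the receptor, averaged 92.9 CPM in the high and 88.7 CPM in the low group. Of 20 genes of the unfolded protein response 19 were tested and 0 called, all 19 with intervals within 2-fold. The 19 core clock genes had 0 called, and Ciart, a repressor of the clock, had the smallest p among them, with 11 to 15.8 CPM in the high and 8.99 to 12.8 CPM in the low libraries.

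**Figure D4:**
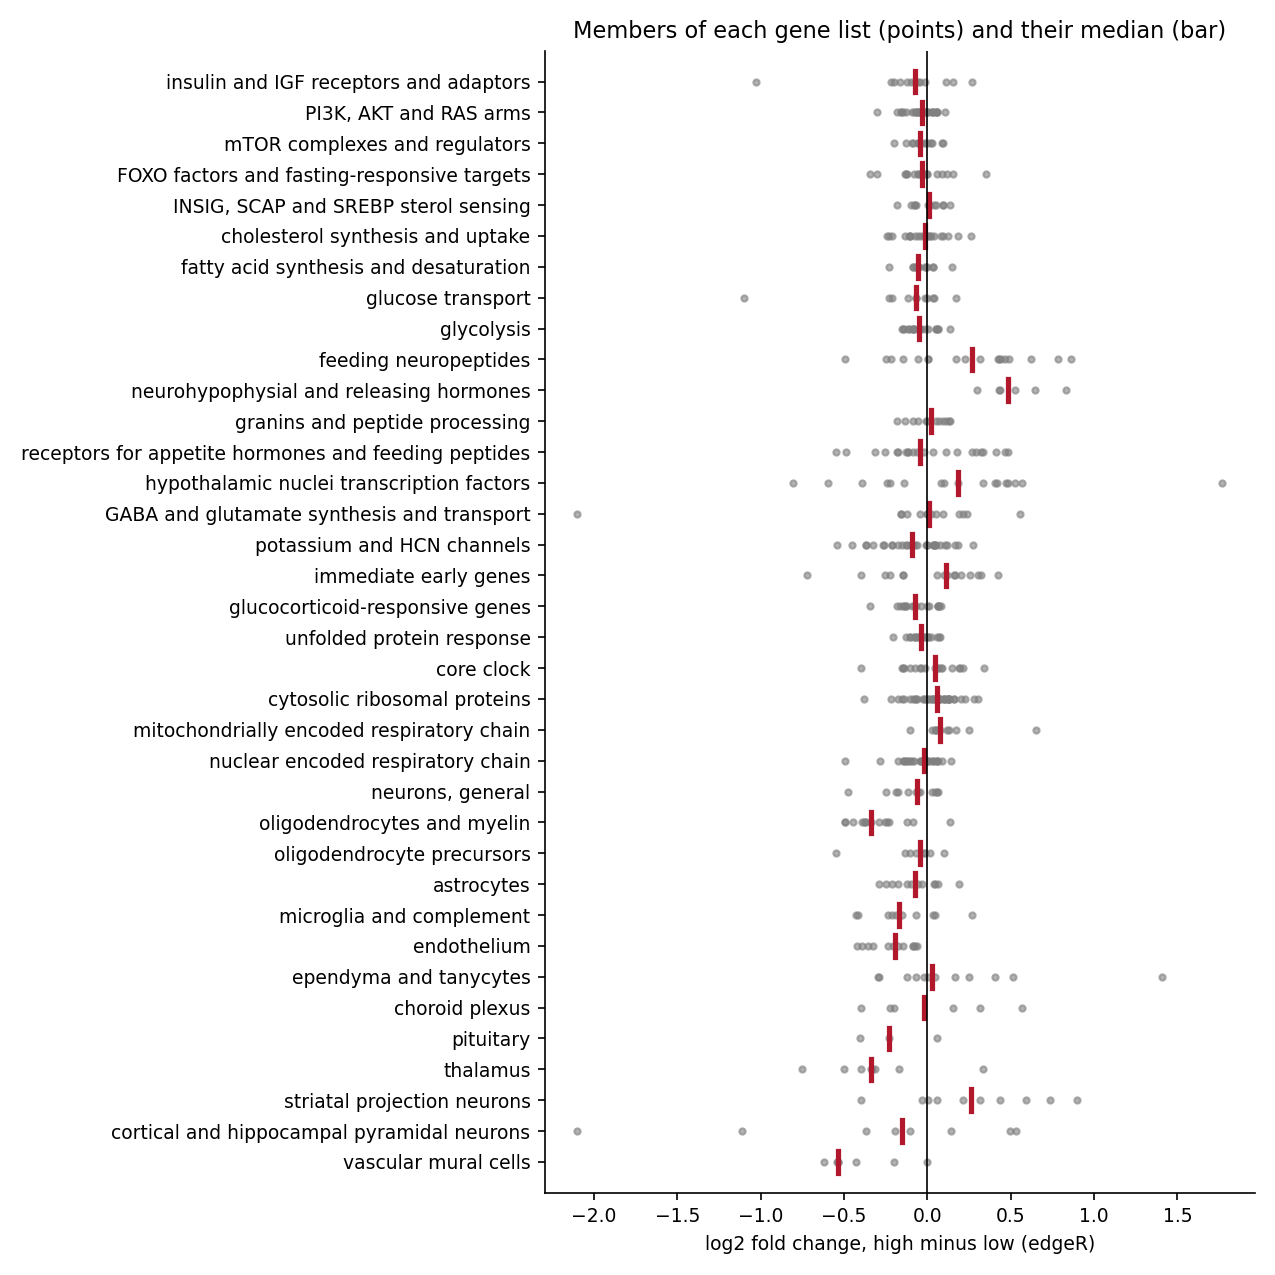
Log2 fold change, high minus low, of the tested members of 36 gene lists (grey points) with each list's median (red bar). The medians of 24 lists lie between -0.1 and 0.1; the lists farthest from 0 are vascular mural cells at -0.54 and the neurohypophysial and releasing hormones at 0.48.

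Over the 36 lists 542 of 588 distinct genes were tested, 0 were called, and 459 (84.7%) had an interval within 2-fold. At an unadjusted p under 0.05 there were 14 genes, 8 higher and 6 lower in the high group, beside the 1.86% of all genes at that level.

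Feeding peptides could not be compared closely, because their levels differed widely between libraries of the same rate. Of 20 feeding neuropeptides 18 were tested, 0 called, and the intervals of 6 lay within 2-fold. Pomc had 14.7, 14, 0.168, 14.7 and 4.31 CPM in the high libraries, against 7.2, 0.21, 8.38, 6.63, 6.94 and 2.34 CPM in low libraries 1 to 6. Its log2 fold change was 0.86 with a 95% interval of -0.82 to 2.54. Agrp had 9.44, 15.2, 0.841, 5.34 and 7.95 CPM in the high libraries, against 0.842 to 11.3 CPM with a median of 3.5 CPM in the low libraries, a log2 fold change of 0.78 (95% interval -0.55 to 2.12). Its exons overlap those of Ctcf on the opposite strand. High 3 and low 2 were lowest for both peptides, which oppose each other in feeding. Npy, made in the same neurons as Agrp, followed it, with 3.03 CPM in high 3 and 2.74 CPM in low 2, and its log2 fold change was 0.49 (95% interval -1.21 to 2.19). Without the 5 peptide-lacking libraries the log2 fold changes of Pomc, Agrp and Npy were 1.01, 1.31 and 0.88, none past the threshold. Pmch, the melanin-concentrating hormone of the lateral hypothalamus, had 829, 549, 2.02, 482 and 234 CPM in the high libraries, against 44.4 to 1140 CPM with a median of 445 CPM in the low libraries.

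The neurohypophysial and releasing hormones had 6 of 10 members tested, all 6 above 0 and 0 called, with a median log2 fold change of 0.48. Without the 5 libraries that lack a peptide this median was -0.01, and without low 2 and high 3 it was 0.07. Trh, the thyrotropin-releasing hormone, had 28.3, 36.6, 39.5, 31.5 and 8.85 CPM in the high libraries, against 2.95 to 39.1 CPM in the low libraries, and its lowest values were again in high 5, low 2 and low 6. The log2 fold change of Trh was 0.44, and -0.03 without the peptide-lacking libraries. The receptors for appetite hormones and feeding peptides were more even, with 22 of 23 tested, 0 called and a median of -0.04. Mc4r, the melanocortin receptor that restrains feeding, averaged 6.95 CPM in the high and 5.03 CPM in the low group, and Lepr, the leptin receptor, 7.18 and 8.99 CPM.

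The genes with the smallest p on the lower side were mixed in function. Prkd2, a protein kinase of the Golgi and of diacylglycerol signalling (GRCm38 chr7:16842902-16870464, plus strand), had the smallest p of all genes tested. It had 4.91, 5.36, 4.21, 5.52 and 5.68 CPM in the high libraries, against 7.3 to 10 CPM with a median of 8.28 CPM in the low libraries. Every high library lay below every low library, and the log2 fold change of Prkd2 was -0.74 ± 0.16 (SE), with a 95% interval of -1.09 to -0.395 and an adjusted p of 0.9997 in edgeR. The 5 saline libraries averaged 6.85 CPM of Prkd2, between the 2 rates. The log2 fold change was -0.66 without the peptide-lacking libraries and -0.83 in the highest range of library tags. Since every high library lay below every low library, a value below 0 was fixed in advance for such subsets. In the hippocampus and the nucleus accumbens, the 2 other regions profiled, the log2 fold change of Prkd2 was -0.20 and -0.16.

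Plcl1, a phospholipase C-like protein that binds GABA type A receptors, had 90.6, 84.6, 95.7, 107 and 89.9 CPM in the high libraries, against 107 to 138 CPM with a median of 116 CPM in the low libraries, a log2 fold change of -0.35 (95% interval -0.56 to -0.15). The groups met at 107 CPM without overlapping. Cp encodes ceruloplasmin, the copper-carrying ferroxidase of astrocytes, and had 16.8 to 22.9 CPM in the high and 23.2 to 60 CPM in the low libraries. Its log2 fold change of -0.75 was -0.52 without low 2, the library with 60 CPM, and its exons overlap those of Hps3 on the opposite strand.

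Icam1 and Vcam1 are adhesion molecules that bind leukocytes at the vessel wall, and Slco1a4 is an organic anion transporter of the blood-brain barrier. Icam1 had 3.59, 3.5, 7.06, 3.87 and 3.41 CPM in the high libraries, against 2.7 to 17.3 CPM with a median of 10.3 CPM in the low libraries (log2 fold change -1.25, 95% interval -2.07 to -0.43). Vcam1 had 30.2 to 35.4 CPM in the high and 35.8 to 52.6 CPM in the low libraries, without overlap (log2 fold change -0.36, 95% interval -0.60 to -0.12). Slco1a4 had 57.8 to 66.7 CPM in the high and 67.3 to 120 CPM in the low libraries, also without overlap (log2 fold change -0.42, 95% interval -0.71 to -0.13). All 3 were highest in low 2, and without low 2 their log2 fold changes were -1.05, -0.29 and -0.29. Rnf152, a ubiquitin ligase of lysosomes that restrains mTOR signalling, had 49.5 to 57.8 CPM in the high and 58.5 to 99.1 CPM in the low libraries (log2 fold change -0.37). Fabp7, the fatty acid binding protein of astrocytes, had 26.6 to 35.5 CPM in the high and 33.7 to 49.9 CPM in the low libraries (log2 fold change -0.38).

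On the higher side Atg9b, a scramblase of autophagosome formation (GRCm38 chr5:24384181-24392143, minus strand), had 22.3, 24.7, 25.4, 23 and 24.1 CPM in the high libraries, against 11.9 to 21.5 CPM with a median of 16.1 CPM in the low libraries. The groups did not overlap, and the log2 fold change was 0.53 ± 0.14 (SE), with a 95% interval of 0.24 to 0.82. Its exons overlap those of Nos3, the endothelial nitric oxide synthase, on the opposite strand, so the gene that gave these reads is uncertain. The saline libraries averaged 29.9 ± 9.29 CPM of Atg9b (SD, n = 5), above both rates. Sh2d5, an adaptor of neuronal synapses, averaged 59.9 ± 5.24 CPM in the high and 47.2 ± 5.68 CPM in the low group (SD, n = 5 and 6; log2 fold change 0.34, 95% interval 0.12 to 0.57). Zfp688, a zinc finger gene, had 6.8 to 11.4 CPM in the high and 4.23 to 6.82 CPM in the low libraries (log2 fold change 0.62, 95% interval 0.23 to 1.02). Rpl21, a ribosomal protein gene with many near-identical copies, had 109 to 164 CPM in the high and 76.5 to 137 CPM in the low libraries and is uncertain for that reason.

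Crym, Ngfr and Clic6, also on the higher side, were each highest in high 3. Crym, a thyroid hormone binding protein, had 6.04, 4.66, 22, 5.16 and 5.9 CPM in the high libraries, against 1.26 to 5.63 CPM with a median of 3.47 CPM in the low libraries. The log2 fold change of Crym, 1.41 ± 0.46 (SE), was 0.70 without high 3. Ngfr, a neurotrophin receptor of basal forebrain cholinergic neurons, had 7.36, 7.69, 40.4, 12 and 10.2 CPM in the high libraries, against 5.22 to 8.13 CPM with a median of 6.37 CPM in the low libraries. The log2 fold change of Ngfr, 1.28 ± 0.43 (SE), was 0.52 without high 3. Clic6, a chloride channel gene of the choroid plexus, had 46.3 CPM in high 3 against 22.7 to 28.9 CPM in the other high and 12.6 to 26 CPM in the low libraries, and its log2 fold change of 0.57 was 0.35 without high 3.

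**Figure D5:**
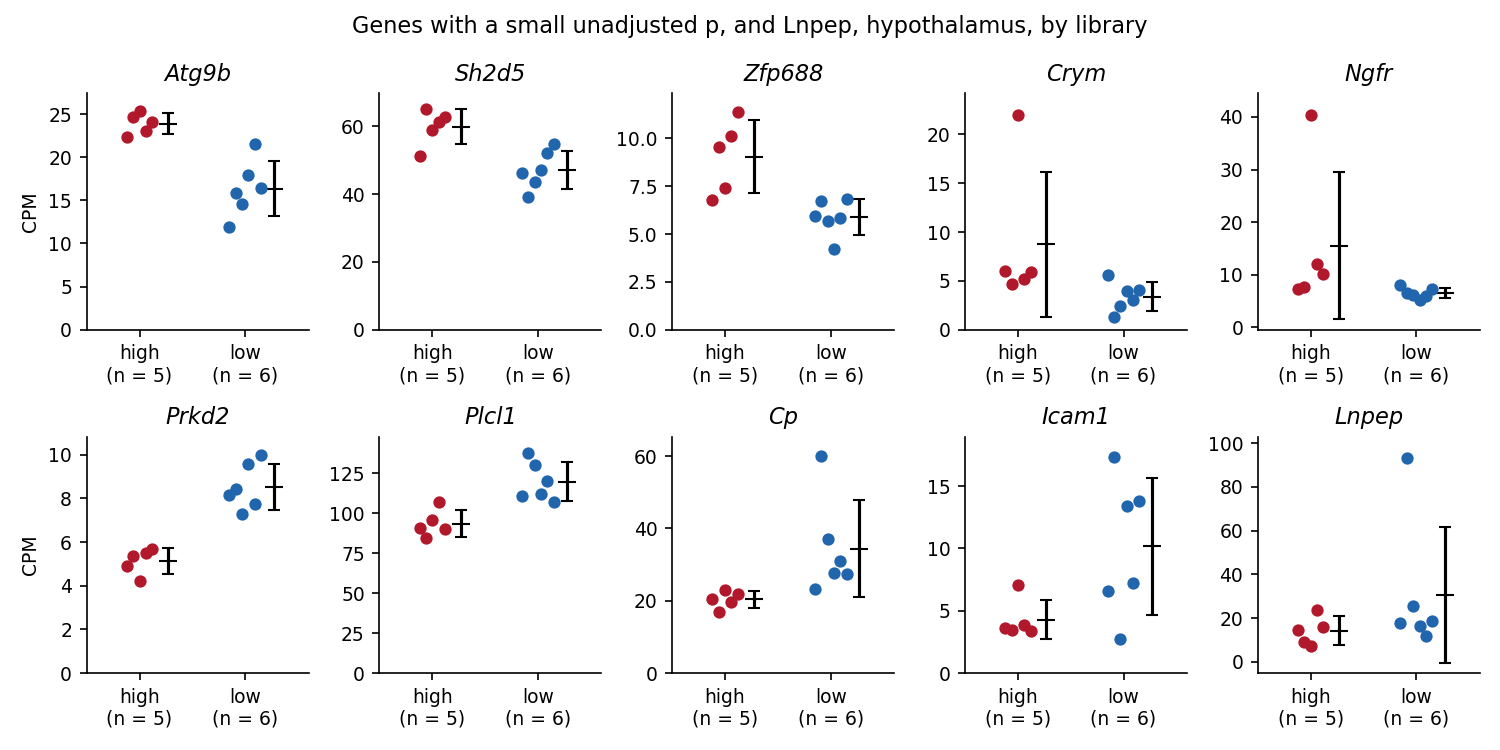
CPM of 9 genes with a small unadjusted p, and of Lnpep, in each of the 5 high libraries (left in each panel) and 6 low libraries (right), with the mean and SD beside them. Atg9b and Prkd2 separate the groups without overlap, at 22.3 to 25.4 against 11.9 to 21.5 CPM and at 4.21 to 5.68 against 7.3 to 10 CPM, while Crym, Ngfr and Lnpep each have 1 library far above the others.

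Over all tested genes the groups of libraries did not overlap in 22 (0.159%), of which 12 (0.0866%) were higher and 10 (0.0722%) lower in the high group. Besides those named, the higher ones included Nprl3, a subunit of the complex that restrains mTOR when amino acids are scarce, with 36.3 to 38.9 CPM in the high libraries against 30 to 34.7 CPM in the low libraries. Its log2 fold change was 0.23. They also included H2afy, a gene for the histone variant macroH2A, with 65.7 to 70.8 CPM in the high and 52.9 to 64.8 CPM in the low libraries. These 2 were picked with their values in view.

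Of the lists of vascular, myelin, thalamic and striatal genes, 0 members were called. All 12 endothelial genes and all 7 tested genes of vascular mural cells, the muscle and pericytes of the vessel wall, had a log2 fold change below 0, with medians of -0.19 and -0.54. The summed level of the endothelial list was 328 to 390 CPM in the high and 343 to 546 CPM in the low libraries, and that of the mural list 100 to 127 CPM and 110 to 224 CPM, each highest in low 2. Low 2 and low 3 held a summed meningeal level of 276 and 245 CPM, whose part in the result was not tested. Without low 2 and high 3 the medians were -0.18 for the endothelium and -0.28 for mural cells, and without the 5 peptide-lacking libraries -0.24 and -0.13. Acta2, the actin of smooth muscle, had 4.99 to 9.09 CPM in the high and 5.94 to 22.5 CPM in the low libraries (log2 fold change -0.62 ± 0.29, SE). Without low 2 it was -0.29.

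Of 15 oligodendrocyte and myelin genes 14 lay below 0, with a median log2 fold change of -0.34 and 0 called. Mbp, the myelin basic protein gene, averaged 2520 CPM in the high and 3180 CPM in the low group. The summed level of the list was 5690, 5610, 5120, 7400 and 9420 CPM in the high libraries, against 8910, 13200, 6260, 6120, 6060 and 8940 CPM in low libraries 1 to 6. The 4 highest libraries, high 5 and low 1, 2 and 6, were those with the most midbrain dopamine RNA. Without the 5 peptide-lacking libraries the median was 0.03, and without low 2 and high 3 it was -0.09. How much of these leanings follows from the dissection was not tested. Of 8 thalamic genes tested, from the region above the hypothalamus, 7 lay below 0, with a median of -0.34. Their summed level was 477 to 822 CPM in the high and 585 to 1060 CPM in the low libraries, highest in low 6. Without the peptide-lacking libraries the thalamic median was -0.0026, but without low 2 and high 3 it was -0.35. Of 10 genes of striatal projection neurons tested 8 lay above 0, with a median of 0.26, and without high 3, the library with 886 CPM of them, it was -0.02. General neuronal genes, with 12 tested, had a median of -0.06, and astrocyte genes, also 12, a median of -0.08.

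Calls in the hypothalamus appeared in 1 setting, which holds 4 libraries. Within the middle range of library tag numbers, high 1 and 2 against low 2 and 3, 18 of 13763 genes (0.131%) were called, 0 higher and 18 lower in the high group. Igf2, insulin-like growth factor 2, which the meninges make, had 14.7 and 15.4 CPM in high 1 and 2, against 99.5 and 84.9 CPM in low 2 and 3, with a log2 fold change of -2.61 in that subset (adjusted p = 3.71e-05 in edgeR). In the remaining 3 high libraries Igf2 had 17.3 to 21.5 CPM, against 9.39 to 21.6 CPM in the remaining 4 low libraries, so its higher level was confined to low 2 and low 3. Slc6a20a, a proline transporter, had 15.5 and 15.2 CPM in high 1 and 2, against 47.6 and 47.9 CPM in low 2 and 3. The others included Aldh1a2, the enzyme that makes retinoic acid in the meninges, the matrix genes Ogn, Fmod and Dcn, and Igfbp2, a binding protein for insulin-like growth factors. Low 2 and low 3 are the libraries with the summed meningeal level of 276 and 245 CPM given above. The list behind that sum includes Igf2, Slc6a20a, Aldh1a2, Ogn, Fmod and Dcn, so the sum is not a separate observation. In the highest range, with 3 high and 3 low libraries, 0 of 14131 genes (0%) were called.

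The other regions gave the same count. Between the rates 0 of 13235 genes (0%) were called in the hippocampus and 0 of 13292 (0%) in the nucleus accumbens, each with 6 libraries of either rate, with 264 and 203 genes at an unadjusted p under 0.05. The test of whether the difference between rates differed between regions also called 0 of 14738 genes (0%), for the hypothalamus against the hippocampus and against the nucleus accumbens, with 307 and 153 genes at an unadjusted p under 0.05. Lnpep, Zfp871 and Lcor had log2 fold changes of 2.39, 2.41 and 2.00 between the rates in the hippocampus, positive where those of the hypothalamus were -1.10, -0.78 and -0.69, and none passed the threshold in either region.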

How the data were processed

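The authors deposited 1 table of raw counts of reads per Ensembl gene with no normalization, and per the submitters' processing notes reads were aligned with STAR and counted with featureCounts on GRCm38.p4. Per the labels the libraries were stranded and made from total RNA. No source used here gives their versions or options, whether strand was used, or the annotation. Genes that overlap on opposite strands, and near-identical copies, are therefore uncertain. Among the genes named, exons of Ryr3, Irs1, Irs2, Txnip, Junb, Slc2a1, Pmch, Icam1, Vcam1 and Rnf152 also overlap an annotated gene on the opposite strand. The table holds 46071 genes, of which 45143 matched a GENCODE M21 symbol; 18297 had no count in the 11 libraries.

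The 11 libraries were fitted alone in edgeR 4.0.16 (R 4.3.3) with filterByExpr, TMM and a robust quasi-likelihood model, 2-sided, with Benjamini-Hochberg adjustment over all genes tested and a call under 0.05. Standard errors and 95% intervals are Wald values from the same fit with the moderated quasi-dispersion. CPM values use TMM-adjusted library sizes. The fit was tested on simulated data. Replicate numbers follow the order of deposit and are names only. Alternatives were DESeq2 1.42.0, limma-voom (limma 3.58.1), other scaling, filters and samples, 1 surrogate variable (sva 3.50.0), tag range and tag run, and leaving out libraries.

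Genes named are those with a mean of at least 5 CPM and the smallest p (10 in each direction), 38 followed genes and up to 4 members of each list by p, with further members, and the genes of other regions, named after their values were seen. The comparison, the genes and the lists were chosen with earlier results of these data known. Values for the saline libraries come from a fit of 16 libraries.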

Additional observations from a re-analysis of the deposited data

Results flagged for a closer look

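Within each group of 5 or 6 libraries, 180 named genes were searched for a library whose gap to the nearest other exceeded Dixon's 95% critical value, and 45 of 360 groups held one. Chance flags about 1 in 20 groups, and genes of one tissue are not independent. High 3 held 11 and low 2 held 13 of the 45.

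High 3 was the highest of its group for Crym (22 CPM), Ngfr (40.4 CPM), Clic6 (46.3 CPM), Lhx6 (42.6 CPM), Drd1 (59.7 CPM), Bcl11b (92.3 CPM), Penk (221 CPM), Crh (10.3 CPM), Acly (472 CPM) and Icam1 (7.06 CPM), and the lowest for Rnf152 (49.5 CPM). Drd1, Bcl11b and Penk are made in striatal neurons, and Lhx6 in neurons of the basal forebrain. Neither Penk nor Lhx6 is particular to these regions. Penk is also on the list of feeding peptides, and Lhx6 on a list of transcription factors of hypothalamic nuclei. Drd2, another striatal gene, did not follow, with a log2 fold change of -0.40, and -0.36 without high 3. Low 2 was the highest of its group for Lnpep (93.2 CPM), Zfp871 (58.5 CPM), Slc17a7 (89.2 CPM), Snap25 (2360 CPM), Hsd17b7 (49.5 CPM), Npc1 (132 CPM), Acta2 (22.5 CPM), Aqp4 (186 CPM), Gjc3 (146 CPM), Tbc1d4 (55.6 CPM), Crhr1 (36.2 CPM) and Tshb (6.1 CPM), and the lowest for Cartpt (17.9 CPM).

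High 5 was the highest for Chrnb3 (15.4 CPM), Igfbp2 (8.4 CPM) and mt-Co2 (95.1 CPM) and the lowest for Insr (115 CPM). Low 1 was the highest for Best1 (8.76 CPM), Gapdh (817 CPM), Ndufa9 (128 CPM), Ndufb8 (263 CPM) and Rps9 (172 CPM) and the lowest for Rps7 (25.7 CPM). Low 6 was the highest for Plekhg1 (106 CPM), Synpo2 (52 CPM) and mt-Co2 (54.8 CPM).

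Single genes stood apart in the other libraries. High 1 was the highest for Dync2li1 (17 CPM) and Rsph1 (5.67 CPM). High 2 was the highest for Ccdc153 (5.13 CPM) and the lowest for Cpd (94.7 CPM). High 4 was the lowest for Best1 (6.63 CPM) and Pdk4 (18.2 CPM). Low 3 was the highest for Insig2 (134 CPM), and low 4 the lowest for Igfbp5 (170 CPM).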

How the results depend on the processing

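The count of 0 called genes in the hypothalamus was the same under every alternative run except the middle tag range alone, which gave 18. Leaving out low 2 and high 3 together was chosen after the data were seen and also gave 0. Leaving out each library in turn gave 0 genes each time, with 179 (without low 2) to 525 (without low 1) genes at an unadjusted p under 0.05. Without the 5 libraries that lack a peptide, which leaves 3 of each rate, 0 of 14035 genes were called. The smallest adjusted p in edgeR was then 0.2183, and 1056 genes had an unadjusted p under 0.05. That is above 5% of the genes tested, where the fit of 11 libraries had 1.86%. Of 4854 pairs of a named gene and an alternative 167 changed sign, all in genes whose 95% interval included 0 in the comparison of 11 libraries, and of the named genes Igfbp2 and Slc13a3 passed the threshold in the middle tag range only. Of 972 pairs of a list and an alternative, 943 medians stayed within the spread of that list and 29 did not. The labels give no replicate numbers. The tag run as a block gave 0 called genes and 707 at an unadjusted p under 0.05, where a share of 5% would be 693. Deviations of the 5 same-run pairs correlated at -0.0493, 0.00887, 0.346, 0.192 and 0.377, and in the last 3 no other low library correlated higher; since 2 pairs lay under 0.1, the runs were not taken as pairs. The difference in mean total count, high minus low, was 84323 and ran from -286585 to 523255 when each library was left out; it was -286585 without low 1, -177117 without high 3, -173143 without low 3 and -6264 without high 4 (exact permutation p from 0.444 to 0.99). Low counts limit what is shown for genes under 5 CPM.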
